A study of Mus musculus with 6 samples.

Results

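The genes described here are 10 enzymes of sphingolipid metabolism, namely the ceramide synthases Cers2, Cers4, Cers5 and Cers6, the serine palmitoyltransferase subunits Sptlc1 and Sptlc2, the dihydroceramide desaturase Degs1, the sphingosine kinase Sphk1, the sphingosine phosphate lyase Sgpl1 and the glucosylceramide synthase Ugcg. They were found by symbol, and all 10 were present among the 14831 genes of the table and passed the expression filter with 14289 genes in all. The family was selected on the measured counts, for the large difference of Cers4 between the groups, so the fold changes of the 10 genes are given as a description, without p-values. RNA came from immortalized mouse fibroblasts of mixed strain background, grown from adult pancreas and harvested at confluence. Of 6 wells, 3 carry the genotype label WT and 3 the label Gli2-/-;Gli3-/- (here KO), for the deletion of the Hedgehog (HH) transcription factors GLI2 and GLI3. The paper describes such lines as infected after immortalization, the controls with an eGFP adenovirus and a dsRed lentivirus and the knockouts with eGFP and Cre adenoviruses under the CMV promoter, and then sorted. Nothing in the labels says that the wells of a group are lines made separately, so they may differ only through culture and library making. All p-values measure the spread between these wells.

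Ceramide is the hub of sphingolipid metabolism. Serine palmitoyltransferase starts the pathway at the endoplasmic reticulum by joining serine and palmitoyl-CoA, ceramide synthases attach a fatty acid to the sphingoid base, and a desaturase then makes ceramide. Ceramide becomes sphingomyelin or glycosphingolipids, or is broken down to sphingosine, whose phosphate is a lipid signal in fibroblasts and is destroyed by the lyase. The ceramide synthases differ in the acyl chain they add: CERS2 uses very long chains, CERS4 stearoyl-CoA and somewhat longer chains, CERS5 and CERS6 palmitoyl-CoA, and CERS1 stearoyl-CoA, mainly in brain and muscle.

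The 6 libraries held between 31728420 and 41035931 counts on genes. Levels are given as CPM, counts scaled to a common library total, with library sizes scaled by edgeR's TMM factors, and fold changes as labelled KO over labelled WT, on the log2 scale as log2FC with its standard error (SE). Adjusted p-values come from the quasi-likelihood test of edgeR with the Benjamini-Hochberg method over all tested genes. The SE was worked back from that test, as the absolute log2FC divided by the square root of its F statistic. For genes with few counts in a group it can be smaller than the counting error. The targeted genes go against the labels: Gli2 had 27.1 ± 1.19 CPM in the WT-labelled libraries and 56.2 ± 1.96 in the KO-labelled ones, and Gli3 had 12.5 ± 0.0441 and 40.8 ± 1.64 (SD, n = 3 each). A count over a whole gene does not show which exons the reads came from. The HH target Gli1 had 1.31 ± 0.169 CPM in the WT-labelled libraries and 0.249 ± 0.141 in the KO-labelled ones, and the HH receptor and target Ptch1 had 235.5 ± 10.3 and 81.8 ± 4.61. Every direction below follows the labels although Gli2 and Gli3 went the other way, so the groups are called by label. Whether the labels of the groups were exchanged was not tested. No difference below is therefore read as an effect of the deletion. Of 10 fibroblast markers, 8 were analysed here, with summed levels of 44820 to 47240 CPM in the WT-labelled libraries and 36780 to 38530 in the KO-labelled ones. Dcn, Col3a1, Pdgfra and Pdgfrb passed the test lower in the KO-labelled libraries (log2FC -1.55, -0.94, -0.90 and -0.66), where 6.1% of all tested genes did. To pass, a gene needed an adjusted p under 0.05 and a difference of at least 1.5-fold. Col1a2 and Vim were also lower but under 1.5-fold (log2FC -0.19 and -0.13, edgeR adjusted p = 5.96e-05 and 0.00176). Col1a1 did not pass either limit (edgeR adjusted p = 0.799), and Thy1 had too few counts to be tested. Among markers of other cell types, the epithelial genes Krt8 and Cdh1 summed to between 0.345 and 0.418 CPM in the WT-labelled libraries and between 0.939 and 1.01 in the KO-labelled ones, the acinar marker Cela1 to 7.36 to 8.84 and 13.6 to 15.4 CPM, and the myeloid marker Csf1r to 0.925 to 1.10 and 1.00 to 1.18. A list of 10 genes that mark mesothelial cells, the lining of the abdominal organs, was made after results of these data were seen. Of these, 8 were analysed here and all 8 passed the test higher in the KO-labelled libraries, where 11.6% of all tested genes did. Because the list was made with these data known, the count is only a description. The summed level of the 8 genes was 28.4 to 32.0 CPM in the WT-labelled libraries and 380.3 to 385 in the KO-labelled ones. Msln, the mesothelin gene, had 2.37 ± 0.394 and 165.7 ± 2.33 CPM (log2FC 6.12, SE 0.06, edgeR adjusted p = 3.75e-15), and Krt7, also an epithelial keratin gene, had 4.38 ± 0.472 and 23.1 ± 0.257 CPM (log2FC 2.40, SE 0.07, edgeR adjusted p = 3.35e-11). The other listed epithelial, acinar and immune markers and all endothelial and pericyte ones were not analysed here.

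Of the 10 genes, Cers4 separated the groups most. It lies on the plus strand at chr8:4493026-4531680 (GRCm38, GENCODE M21, as for every gene position here) and has the identifier ENSMUSG00000008206.16. Reads on Cers4 numbered 10, 7 and 2 in the wells labelled WT and 859, 1021 and 864 in the KO-labelled ones. These are 0.319, 0.209 and 0.0627 CPM against 24.3, 24.5 and 26.2 CPM, so the gene was at the edge of detection in the first group and readily counted in the second, and the groups did not overlap. Counting error alone spans 0.00759 to 0.226 CPM for the WT-labelled library with 2 counts, which is under the floor of 3 counts. The fitted log2FC was 6.96 (SE 0.16), and the ratio of the summed counts, 19 against 2744, was 127 (exact 95% interval 81.1 to 211, counting error only). This interval is wider than the SE would give, so the SE understates the uncertainty of the Cers4 difference. The WT-labelled libraries varied by 65.3% (CV) and those labelled KO by 4.17%. In bulk RNA, more cells that express a gene and more RNA per cell cannot be told apart, and the markers of other cell types given above also had higher sums for mesothelial, epithelial and acinar genes in the KO-labelled libraries. The mesothelial sum moved with Cers4, from at most 32.0 to at least 380.3 CPM. The part of these cell types in the Cers4 difference, and in the other differences below, was not tested. Of 12264 annotated exon bases of Cers4, 1100 overlap Gm36956 or Vmn2r-ps89 on the opposite strand, and 8.48% of the 50-base words of its transcripts also occur in transcripts of other genes, so a part of its reads could have been assigned otherwise.

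**Figure D1:**
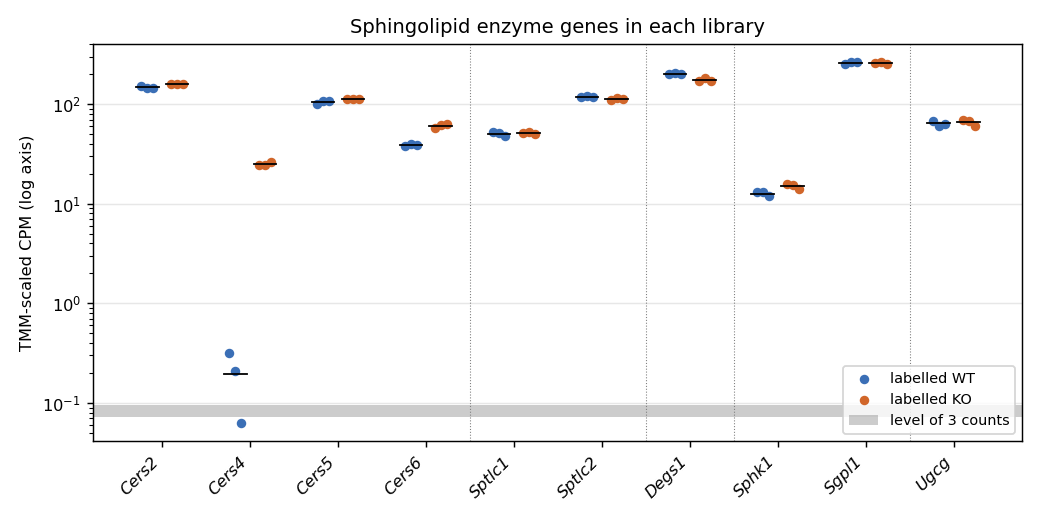
CPM of the 10 genes (log axis) in each library, blue for the WT-labelled libraries and orange for those labelled KO, with a black line at each group mean and a grey band at the level of 3 counts. Cers4 lies between 0.0627 and 0.319 CPM in the WT-labelled libraries and between 24.3 and 26.2 in the KO-labelled ones. Cers6 lies between 37.8 and 39.4 and between 58.2 and 62.9 CPM, and the other 8 genes differ by less.

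The 250 bases before the RefSeq start of Cers4, which lies inside the GENCODE gene, are printed because this gene had the largest difference, beside those of Cers6, the other gene past a 1.5-fold difference, and of Cers2, the most abundant ceramide synthase. They are from RefSeq on GRCm38.p6, on the strand of the gene, at chr8:4493155-4493404, chr2:68861191-68861440 and chr3:95314940-95315189, all on the plus strand. Capitals mark GC boxes (GGGCGG or its reverse complement CCGCCC).
Cers4: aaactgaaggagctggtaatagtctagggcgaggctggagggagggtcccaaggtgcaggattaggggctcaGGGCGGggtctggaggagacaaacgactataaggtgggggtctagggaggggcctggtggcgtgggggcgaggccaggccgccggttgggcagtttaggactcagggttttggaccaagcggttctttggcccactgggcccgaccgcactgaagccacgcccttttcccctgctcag
Cers6: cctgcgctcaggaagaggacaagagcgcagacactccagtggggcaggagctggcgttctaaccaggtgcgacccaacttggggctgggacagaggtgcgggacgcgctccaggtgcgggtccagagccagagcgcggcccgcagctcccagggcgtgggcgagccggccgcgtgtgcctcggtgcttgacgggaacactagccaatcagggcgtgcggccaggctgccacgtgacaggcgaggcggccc
Cers2: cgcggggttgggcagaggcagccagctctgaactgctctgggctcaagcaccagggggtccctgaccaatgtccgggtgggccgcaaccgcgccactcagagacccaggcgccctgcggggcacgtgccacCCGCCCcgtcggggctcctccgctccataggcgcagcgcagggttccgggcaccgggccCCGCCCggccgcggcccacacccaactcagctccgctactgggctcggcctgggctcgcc
Promoter windows, each reaching 50 bases past the start, were found for all 10 genes. The GLI binding motif GACCACCCA, searched on both strands, occurred in none of their windows, nor in that of Cers1, and 0.253% of 32841 windows in all contained it. The window of Cers4 held 1 GC box, that of Cers6 none, and the window of Cers2 shown here 2, where 35.7% of all windows held at least 1. Its 14 CpG dinucleotides put the Cers4 window at 0.46 of the number its base composition would give, between the median of all windows (0.384) and the windows of Cers5 (0.686), the printed Cers2 start (0.711), Cers1 (0.755) and Cers6 (0.78). A second RefSeq start of Cers2 was below that median (0.274), with no GC box and 54.3% G and C. The share of G and C was 62.7% to 75% in the 5 windows named first, 50.7% in that of Cers3 and 52.7% in the median window. These are descriptions of letters in a short window and identify no binding site.

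The other ceramide synthases differed little or moderately. Cers6 (chr2:68861441-69114282, plus strand) had 37.8, 39.4 and 38.7 CPM in the WT-labelled libraries and 58.2, 61.6 and 62.9 in the KO-labelled ones, without overlap, a log2FC of 0.66 (SE 0.04) or 1.58-fold. Cers2 (chr3:95314791-95323599, plus strand), the gene of the very long chain enzyme, had 153, 147 and 146 CPM in the WT-labelled libraries and 158.0, 159.9 and 158.9 in the KO-labelled ones, a log2FC of 0.10 (SE 0.03). Cers5 (chr15:99734881-99772885, minus strand) had 99.8, 106.5 and 106.5 CPM against 112, 113.5 and 112, a log2FC of 0.11 (SE 0.03). Each KO-labelled library was thus above each WT-labelled library for all 4 ceramide synthases among the 10 genes, but for Cers2 and Cers5 the step was 1.07-fold and 1.08-fold. The groups also did not overlap, in either direction, for 64.2% of all tested genes. Cers1, from the wider family, had 0.989, 0.418 and 0.815 CPM in the WT-labelled libraries and 2.23, 1.66 and 2.58 in the KO-labelled ones. It was not part of the choice and was tested: its log2FC was 1.53 (SE 0.26, edgeR adjusted p = 2.62e-04). Of the 3171 exon bases of Cers1, 1349 are shared with Gdf1 on the same strand, and how such reads were counted is not given in the sources used here. Cers3 was not analysed here.

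Per length, the order of the ceramide synthases was Cers2, Cers5, Cers6 in both groups, followed by Cers1 and Cers4 in the WT-labelled libraries and by Cers4 and Cers1 in the KO-labelled ones. Levels per length are CPM per kilobase of annotated exons. Cers2 was at 40.4 ± 1.08 and 43.2 ± 0.263 CPM per kilobase, Cers5 at 29.4 ± 1.10 and 31.8 ± 0.205, Cers6 at 4.35 ± 0.0939 and 6.86 ± 0.272, Cers1 at 0.234 ± 0.0923 and 0.679 ± 0.147 and Cers4 at 0.0161 ± 0.0105 and 2.04 ± 0.085 in the WT-labelled and KO-labelled libraries (SD, n = 3 each). No neighbours in this order overlapped between libraries of a group. Of the summed level of the 5 genes, Cers4 made up 0.0350%, 0.0229% and 0.00687% in the WT-labelled libraries and 2.36%, 2.35% and 2.51% in the KO-labelled ones. By annotated length, and despite its large fold change, Cers4 thus remained a minor part of ceramide synthase mRNA. The sum of the 5 was 1.14 times as high in the KO-labelled libraries, or 1.11 times without Cers4. Cers2 took 54.3% ± 1.47 and 51.1% ± 0.170 of the sum, Cers5 39.5% ± 1.46 and 37.6% ± 0.270, and Cers6 5.84% ± 0.121 and 8.11% ± 0.271. The share of Cers4 and its place in the order rest on its annotated length of 12264 exon bases, most of them in 1 transcript of 9475 bases. A shorter transcript of Cers4, which would raise its level per length, was not tried. Without scaling by length, Cers4 had 6.94% of the summed CPM in the KO-labelled libraries.

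**Figure D2:**
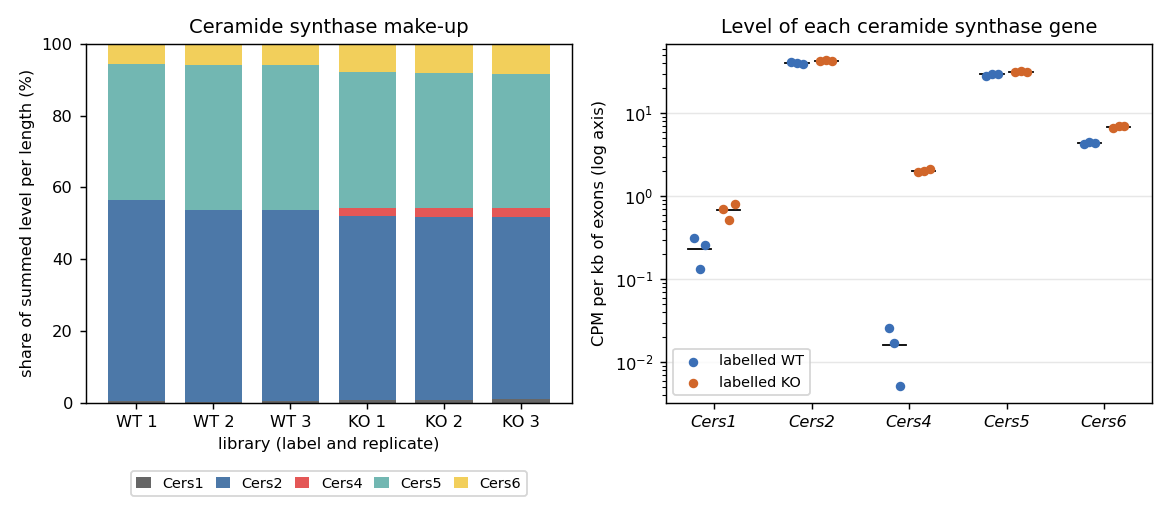
Left, the share of each ceramide synthase gene in their summed level per length (%), as a stacked bar for each library. Right, the level of each gene in CPM per kilobase of exons (log axis), with a point for each library and a line at the group mean. Cers2 and Cers5 fill most of every bar, and Cers4 appears as a thin layer of 2.35% to 2.51% in the KO-labelled libraries.

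The genes of the steps before ceramide had close levels in both groups. Sptlc1 (chr13:53332748-53377397, minus strand) encodes the shared subunit of serine palmitoyltransferase and had 52.7, 51.8 and 47.5 CPM in the WT-labelled libraries and 51.7, 52.5 and 50.2 in the KO-labelled ones, which overlap (log2FC 0.02, SE 0.04). Sptlc2 (chr12:87305058-87388355, minus strand), the catalytic partner, had 117.5, 119 and 118 CPM against 110.7, 114 and 113, slightly lower in every KO-labelled library (log2FC -0.07, SE 0.03). Degs1 (chr1:182275772-182282804, minus strand), which desaturates dihydroceramide to ceramide, had 199, 207 and 203 CPM in the WT-labelled libraries and 172, 185 and 172 in the KO-labelled ones. It was lower without overlap, with a log2FC of -0.20 (SE 0.03). Per length Degs1 was the most abundant of the 10 genes in both groups, at 78.2 ± 1.51 and 68.1 ± 2.81 CPM per kilobase, while Sptlc1 and Sptlc2 were close to each other, at 14.2 ± 0.785 and 14.6 ± 0.118 in the WT-labelled libraries, where they overlap, and at 14.5 ± 0.328 and 13.9 ± 0.221 in the KO-labelled ones.

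Among the 10 genes, 3 encode enzymes that use ceramide or its products, and of these Sphk1 had the largest difference. Sphk1 (chr11:116530925-116536674, plus strand), which phosphorylates sphingosine, had 12.99, 13.1 and 11.97 CPM in the WT-labelled libraries and 15.7, 15.3 and 14.1 in the KO-labelled ones, higher without overlap by 0.25 on the log2 scale (SE 0.06). Sgpl1 (chr10:61098642-61147703, minus strand), which breaks down sphingosine 1-phosphate irreversibly, had 256, 264 and 263 CPM against 256, 262 and 256, with a log2FC of -0.02 (SE 0.03). Ugcg (chr4:59189257-59222833, plus strand), which makes glucosylceramide, had 68.0, 60.6 and 63.3 CPM against 68.7, 67.3 and 60.5, and a log2FC of 0.04 (SE 0.05). The libraries of both groups overlap for Sgpl1 and Ugcg. Per length, Sgpl1 and Cers2 were next to each other, at 42.5 ± 0.774 and 40.4 ± 1.08 CPM per kilobase in the WT-labelled libraries, where they overlap, and at 42.0 ± 0.561 and 43.2 ± 0.263 in the KO-labelled ones, where they do not. Ugcg stood at 12.3 ± 0.717 and 12.6 ± 0.849, and Sphk1 at 2.65 ± 0.127 and 3.15 ± 0.172.

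The limits used for all genes, an edgeR adjusted p under 0.05 and a difference of 1.5-fold or more, were met by 2 of the 10 genes. Both, Cers4 and Cers6, were higher in the KO-labelled libraries. Over all 14289 genes tested 17.7% met these limits, 11.6% higher and 6.1% lower. The groups did not overlap for 7 of the 10 genes, where 64.2% of all tested genes do not. Because this contrast chose the family, nothing is read from these counts. The median log2FC of the 10 genes was 0.07, that of the 9 without Cers4 was 0.04, and that of all tested genes was 0.00197. Between the wells of a group, the 9 genes other than Cers4 varied by 0.608% to 6.75% (CV).

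The neighbours of Cers4 on the chromosome did not share its difference in size. The nearest tested gene before it, Ccl25, ends 133006 bases away and had a log2FC of 0.20 (SE 0.13, edgeR adjusted p = 0.204). The nearest tested gene after it, Zfp958, starts 81487 bases away and had a log2FC of 0.41 (SE 0.08, edgeR adjusted p = 4.60e-04), under the 1.5-fold limit. Over the 6 libraries, the log2 CPM profiles closest to that of Cers4, each centred on its mean, were those of Adgrg2, Col4a3, Pkhd1l1, Smpdl3b and Syt14, with root mean square distances of 0.508, 0.619, 0.625, 0.628 and 0.654 log2 units. All 5 were near 0 in the WT-labelled libraries, with at most 11 counts in any of them. Smpdl3b is itself a gene of sphingolipid metabolism and is described with the sphingomyelinases below.

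The rest of the pathway was taken from a list of 78 genes of sphingolipid synthesis, breakdown, transfer and signalling. The list was made with earlier results of these data known, so its counts and shares here and below are only a description. Of these, 58 were analysed here and 57 had enough counts to be tested, A4galt being the exception. Of the 57, 17 passed the limits of adjusted p and fold (edgeR), 11 higher and 6 lower in the KO-labelled libraries, or 29.8% where all genes gave 17.7%. The median log2FC of the list was 0.01. Without the fold limit 43 passed, 22 higher and 21 lower, where 58.7% of all genes did. S1pr5, Smpdl3b, B3galnt1 and Spns2 passed the expression filter only through the KO-labelled libraries. Their higher calls were thus largely set by the filter and are a description. With at least 10 counts required in every library, 7 genes of the list passed both limits higher and 6 lower.

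**Figure D3:**
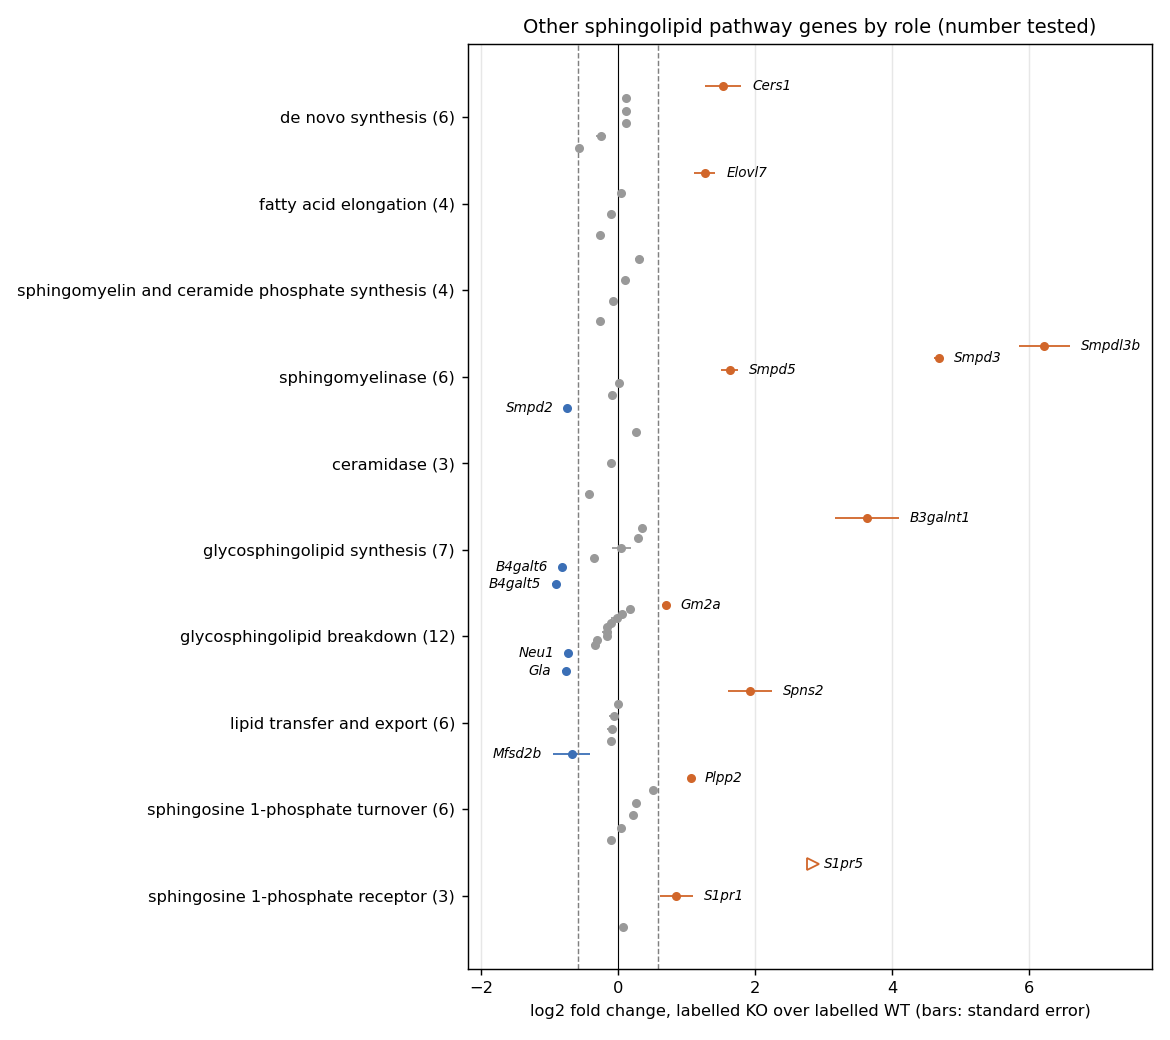
Log2 fold change of the 57 tested genes of the list, labelled KO over labelled WT, by role, with bars for the standard error. Orange and blue points passed the test higher and lower, grey points did not, dashed lines mark 1.5-fold, and the open triangle sets S1pr5 at its lower bound of 7.16-fold. Smpdl3b and Smpd3, in the sphingomyelinase row, lie farthest to the right.

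Sphingomyelinases release ceramide from sphingomyelin. Of 6 tested genes listed under this name, Smpdl3b being a relative, 3 passed higher and 1 lower in the KO-labelled libraries. This is 66.7%, where all tested genes gave 17.7%. Smpdl3b is in this count only because it was high in the KO-labelled libraries, through which it passed the expression filter. Smpd3, which encodes a neutral sphingomyelinase linked to exosome release, had 2.65, 2.54 and 2.26 CPM in the WT-labelled libraries and 61.0, 64.9 and 64.8 in the KO-labelled ones. Its log2FC was 4.68 (SE 0.07, edgeR adjusted p = 2.74e-14), or 25.6-fold. The groups lay far apart for Smpd3, while Smpd1, the acid sphingomyelinase gene, had 80.5 ± 0.472 and 81.3 ± 0.807 CPM and did not pass the test (log2FC 0.01, SE 0.03). Smpdl3b, which encodes a membrane-anchored relative of acid sphingomyelinase, had 1, 2 and 0 counts in the WT-labelled libraries and 104, 97 and 82 in the KO-labelled ones (edgeR adjusted p = 2.18e-08). The ratio of its summed counts was 82.9 (exact 95% interval 28.1 to 404, counting error only). Its fitted log2FC was 6.22 with all libraries and 7.05 without WT replicate 2. Smpd5, a further neutral sphingomyelinase gene, rose from 1.52 ± 0.0518 to 4.71 ± 0.306 CPM, a log2FC of 1.63 (SE 0.12, edgeR adjusted p = 1.70e-07). Smpd2 went the other way, from 88.7 ± 1.96 to 52.6 ± 1.40 CPM, a log2FC of -0.75 (SE 0.04, edgeR adjusted p = 1.90e-09). The groups did not overlap for any of the 4 genes that passed, where 64.2% of all tested genes do not. Of the exon bases of Smpd2 and Smpd5, 20.3% and 13.8% overlap genes on the opposite strand, as do 66.7% of those of Ormdl2, 21.9% of Sphk2 and 20.7% of B4galnt1, described below. Whether counting used strand is not given in the sources used here.

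**Figure D4:**
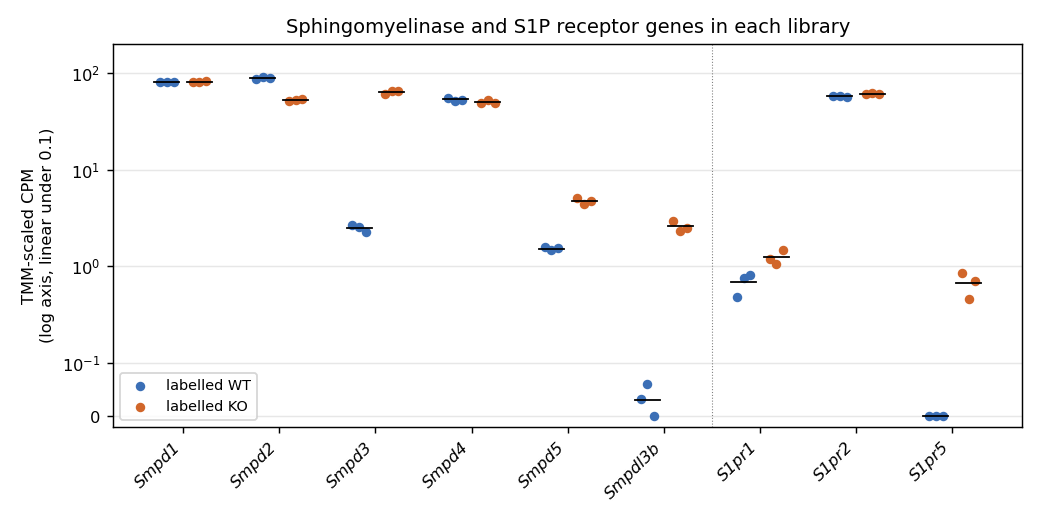
CPM of 6 genes listed as sphingomyelinases and 3 sphingosine 1-phosphate (S1P) receptor genes in each library, on a log axis that is linear under 0.1, with black lines at group means. Smpd3 lies between 2.26 and 2.65 CPM in the WT-labelled libraries and between 61.0 and 64.9 in the KO-labelled ones, and S1pr5 is at 0 in all WT-labelled libraries.

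Of the S1P turnover genes 1 of 6 passed (16.7%), and of the S1P receptor genes 2 of 3, all higher in the KO-labelled libraries. Over all tested genes 17.7% passed, 11.6% higher. S1pr5 is in the receptor count only because it was high in the KO-labelled libraries, through which it passed the expression filter. Plpp2, which encodes a lipid phosphatase at the cell surface that can act on S1P, had 40.6, 39.0 and 38.0 CPM in the WT-labelled libraries and 81.3, 85.7 and 78.9 in the KO-labelled ones, a log2FC of 1.06 (SE 0.04, edgeR adjusted p = 3.68e-10). It was the only gene of 6 in its role group to reach 1.5-fold. The S1P phosphatase gene Sgpp1 had 43.3 ± 1.21 and 61.5 ± 0.449 CPM, and Sphk2, the other sphingosine kinase gene, had 28.8 ± 0.876 and 34.6 ± 0.862. Among the receptors, S1pr2 did not pass the test (edgeR adjusted p = 0.0700), with 57.8 ± 0.840 and 60.9 ± 0.609 CPM. The gene S1pr1 rose from 0.479, 0.746 and 0.815 CPM to 1.19, 1.06 and 1.48 (log2FC 0.85, SE 0.24, edgeR adjusted p = 0.00790). No read on S1pr5 (0 counts) was found in any WT-labelled library, against 30, 19 and 23 for KO. This is at least 7.16-fold higher when set against a floor of 3 counts per library (edgeR adjusted p = 2.82e-05). Neither rising receptor gene had more than 1.48 CPM in any library. The S1P exporter gene Spns2 had 3, 8 and 11 counts against 29, 37 and 30, a log2FC of 1.92 (SE 0.32, edgeR adjusted p = 2.29e-04). The call for Mfsd2b, another S1P exporter gene, with 15, 19 and 17 counts against 12 in each library, rests on the settings (log2FC -0.68, edgeR adjusted p = 0.0463), and leaving out any 1 of the 6 libraries ended it, with an adjusted p between 0.0585 and 0.151.

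In glycosphingolipid synthesis, the step after Ugcg was lower. B4galt5, which makes lactosylceramide from glucosylceramide, had 113, 99.6 and 98.9 CPM in the WT-labelled libraries and 59.7, 52.8 and 52.9 in the KO-labelled ones, a log2FC of -0.91 (SE 0.06, edgeR adjusted p = 3.54e-08). Its paralog B4galt6 had 70.1 ± 2.66 and 39.5 ± 0.197 CPM, a log2FC of -0.83 (SE 0.04, edgeR adjusted p = 1.72e-09). Both lactosylceramide synthase genes thus fell without overlap, while Ugcg itself overlapped between the groups. A lack of overlap was found for 64.2% of all tested genes. The GM3 synthase gene St3gal5 had 153 ± 3.32 and 119.8 ± 4.54 CPM, under the fold limit, and B4galnt1, which starts the complex gangliosides, had 62.6 ± 0.294 and 79.3 ± 0.945, also under it. B3galnt1, which makes globoside, had 1, 1 and 2 counts against 15, 26 and 20, and passed the test (edgeR adjusted p = 2.27e-05) with a ratio of summed counts of 13.4 (exact 95% interval 4.98 to 50.8, counting error only).

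In glycosphingolipid breakdown, 3 of 12 genes passed, 1 higher and 2 lower, or 25% where all tested genes gave 17.7%. Gla, the gene of alpha-galactosidase A, fell from 20.3, 20.5 and 21.4 CPM to 12.2, 11.8 and 12.6, a log2FC of -0.77 (SE 0.06, edgeR adjusted p = 1.16e-07). Neu1, the lysosomal sialidase gene, fell from 56.7 ± 1.03 to 34.0 ± 0.838 CPM (log2FC -0.74, SE 0.04, edgeR adjusted p = 4.60e-09). Gm2a, which encodes the activator that presents GM2 ganglioside to hexosaminidase, rose from 22.5, 23.1 and 22.7 CPM to 39.1, 35.9 and 35.3, a log2FC of 0.69 (SE 0.05, edgeR adjusted p = 1.07e-07). The groups did not overlap for these 3 genes, where 64.2% of all tested genes do not. Psap, the saposin precursor gene, stayed under the fold limit with 2519 ± 8.55 and 2336 ± 15.3 CPM.

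Of the other genes before and around ceramide, Cers1 and Elovl7 passed. Of 6 tested genes of de novo synthesis, Cers1 alone passed, or 16.7% where all tested genes gave 17.7%. Kdsr, which reduces the first product of serine palmitoyltransferase, had 57.1 ± 1.90 and 38.5 ± 1.20 CPM, a log2FC of -0.57 (SE 0.04, edgeR adjusted p = 1.09e-07) just under the fold limit, and it passed the limit at -0.60 without WT replicate 2 or without KO replicate 1. Ormdl1, Ormdl2 and Ormdl3, whose products hold back serine palmitoyltransferase, had log2FC values of -0.26, 0.12 and 0.11 and stayed under the fold limit. Among 4 fatty acid elongase genes tested, Elovl7 rose from 2.07, 1.97 and 1.44 CPM to 3.76, 4.92 and 4.45 (log2FC 1.26, SE 0.16, edgeR adjusted p = 1.60e-05). Elovl1, which supplies the very long chains that CERS2 uses, had 59.0 ± 2.47 and 55.1 ± 0.432 CPM. The 4 tested genes of sphingomyelin and ceramide phosphate synthesis and the 3 ceramidase genes all stayed under the fold limit, the widest being Acer3 with a log2FC of -0.43. Cert1, the gene of the transfer protein that carries ceramide to the Golgi (listed as Col4a3bp), had 109.5 ± 1.98 and 109.1 ± 3.28 CPM.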

How the data were processed

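The authors deposited raw read counts per gene and a log2 CPM table for 6 poly-A libraries. The submitters' processing notes name STAR 2.7.2b, featureCounts, limma and GRCm38.p6, while the annotation and the use of strand are not given in the sources used here. The deposited log2 values of the listed genes matched log2 of a count plus 0.5, scaled by TMM, within 0.00328. The test used edgeR 4.0.16 under R 4.3.3 on the counts (TMM, filterByExpr, quasi-likelihood F test, Benjamini-Hochberg over 14289 genes), called at adjusted p under 0.05 and at least 1.5-fold. Totals were 31728420 to 33905521 counts (labelled WT) and 32781730 to 41035931 (labelled KO), and 3 counts are 0.0720 to 0.0957 CPM. Library pairs of a group exceeded sampling noise (chi-square per degree of freedom 2.50 to 7.74), and all 6 were kept as replicates. Wells or libraries of the same line can also differ by more than sampling noise, so this does not show separately made lines. With 3 against 3, an exact permutation test cannot give a two-sided p under 0.1. Of the identifiers, 14822 of 14831 match GENCODE M21 without version. The edgeR fit was tested on simulated counts.

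The members and lists were chosen with earlier results of these data known. Named were the 10 genes, Cers1 and Cers3, the called gene with the largest change in each direction of each role given 50 or more counts in each of the 3 higher libraries, Gli1 to Gli3, the S1P receptors, the neighbours of Cers4 and the 5 profiles closest to it (on log2 CPM with 0.5 counts added). Smpd3, Smpd5, Sgpp1, Sphk2, Spns2, Mfsd2b, B4galt6, St3gal5, B4galnt1, B3galnt1, Neu1, Psap, Kdsr, the Ormdl genes, Elovl1, Acer3, Cert1, A4galt, Smpd1, Ptch1, Msln and Krt7 were named after their values were seen. So were the fibroblast markers named above. Alternatives were scaling by RLE, by the upper quartile or by totals, other filters and fold limits, DESeq2 1.42.0, limma 3.58.1 on counts (voom) and on the deposited log2 values, and each library left out. The share of Cers4 without length scaling was added after seeing the data. A few marker genes are not reported here.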

Additional observations from a re-analysis of the deposited data

How the results depend on the processing

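Of the alternatives, the fold limit moved the counts most. Without it 8391 genes passed in all and 43 of the pathway list (22 higher, 21 lower), and with a 2-fold limit 1456 and 9, all 9 higher, as no listed gene fell by 2-fold (0 lower). With at least 10 counts in every library, 7 listed genes were higher, because fewer were tested. Under the other scalings, DESeq2, both limma fits and the lack of a filter, the counts stayed within 1.5 times. With each library left out in turn, 2501 to 2618 genes passed in all and 16 to 17 of the list, 11 higher each time and 5 to 6 lower. The share of Cers4 in the ceramide synthase sum of the libraries labelled KO was 2.41%, 2.35% to 2.43% with a library left out, 2.12% by the longest transcript and 6.94% without length scaling. The log2 fold change of Cers4 stayed between 6.55 and 7.47 and that of Cers6 between 0.64 and 0.71, while those of Sgpl1, Sptlc1 and Ugcg, near 0, took both signs. Cers1, Smpd3, Smpdl3b, Plpp2 and S1pr5 kept their calls wherever they were tested. Mfsd2b lost its call under 11 alternatives. Depth limits Cers4, Smpdl3b and S1pr5 in the libraries labelled WT, where few or no reads were counted. No paired analysis was possible because the labels give no replicate numbers shared between the groups.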
